A study of Mus musculus with 12 samples.

Results

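ATP-binding cassette genes encode proteins that share a conserved ATP-binding domain, and most of them are membrane transporters. The family was followed here in mouse lung tumours and in the normal lung beside them. Its members were taken by symbol: every protein-coding gene named Abca to Abcg with a number and, where present, a final letter. That rule found 50 members among the 78298 gene rows of the deposited table. Subfamily A had 16, B 10, C 10, D 4, E 1, F 3 and G 6. The antigen peptide transporters Tap1 and Tap2 and the chloride channel Cftr belong to the same protein superfamily but carry other symbols, so they are not members and appear only for comparison. The family was taken up with earlier results of these libraries known, in which Abca1 and Abcc5 were the only genes called higher in HDM tumours. The HDM against VEH comparison of tumours is therefore given below as a description. Calls and adjusted p-values printed for it are not a test of the family.

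Most members of subfamilies A, B, C, D and G use ATP to move a substrate across a membrane: lipids and sterols in subfamilies A and G, peptides, drugs and mitochondrial substrates in B, conjugated organic anions and drugs in C, and fatty acids into peroxisomes in D. Subfamilies E and F have the ATP-binding domains but no membrane domain and work on ribosomes. In the lung, the best known member is Abca3, which loads surfactant lipid into the lamellar bodies of alveolar type 2 cells, and Abca1 and Abcg1 export cholesterol from macrophages and other cells.

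RNA was sequenced from 12 mouse libraries, 3 in each of 4 groups: normal lung of mice given VEH, normal lung of mice given HDM, LLC tumours of VEH mice and LLC tumours of HDM mice. HDM is spelled out as house dust mite in the series title, VEH and LLC are used as the labels give them, and the exposure is called chronic. Strain, sex, age, dose and route are not given in the labels used here. Tumour and normal pieces were cut from the lung by hand under a microscope, so each library mixes cell types, and fewer cells of a type and less RNA per cell cannot be told apart. The labels number replicates but do not say that each came from a separate mouse, so the spread between replicates may be partly technical.

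Total counts per library ran from 20608682 to 32765364. Library names carry 6 prefixes, each joining 1 normal and 1 tumour library. For 2 prefixes the treatment labels conflict: normal VEH 2 goes with tumour HDM 2, and normal HDM 3 with tumour VEH 3. Labels were kept as given. The 5 alveolar type 2 markers summed to between 14900 and 39800 CPM (counts scaled to a common library total) in normal libraries, between 2080 and 7690 in VEH tumours and between 66.4 and 2240 in HDM tumours. Tumour HDM 3 was the lowest. The 5 proliferation markers summed to 25.0 to 142 CPM in normal libraries, the highest being normal VEH 2, and to 457 to 930 CPM in tumours.

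Counts of 39 members were high enough to test. The other 11 were Abca12, Abca14, Abca15, Abca16, Abcb5, Abcb11, Abcc2, Abcc6, Abcc12, Abcg5 and Abcg8, and none of them reached more than 61 counts over all 12 libraries or more than 1.07 CPM in any. Abca15, Abca16 and Abcb5 had no count at all. Several of these are known from liver or intestine, such as the bile salt pump Abcb11, the conjugate exporter Abcc2 and the plant sterol pair Abcg5 and Abcg8. The family took 0.139% to 0.218% of all counts in normal libraries and 0.113% to 0.158% in tumours, so these ranges overlapped.

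The lipid transporter Abca3 led the family in normal lung and ribosome factors led it in tumours, with Abcf2 and Abcf1 among the leaders in both. Levels of different genes are compared as CPM per kilobase of the deposited gene length. The order, and the subfamily shares below, depend on that length. For Abcf2 it is 2569 bases, where its exons in GENCODE M39 cover 5612, and for Abcf3 3558 against 5789. In normal lung the highest medians over 6 libraries were those of Abca3 at 46.0 CPM per kb, the peroxisomal transporter Abcd3 at 22.5, the ribosome-associated Abcf2 at 20.4, and the conjugate exporter Abcc3 and the translation factor Abcf1 at 19.0 each. In tumours the order was Abcf2 at 33.3, the ribosome recycling factor Abce1 at 31.7, Abcf1 at 30.5, Abcf3 at 14.8 and Abca3 at 10.3 CPM per kb. Only Abca3 among these 5 leading tumour members is a transporter. The normal ranges of Abcd3 (17.6 to 31.5), Abcf2 (19.8 to 26), Abcc3 (8.21 to 21.7) and Abcf1 (16.8 to 21) overlapped and gave no firm order.

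**Figure D1:**
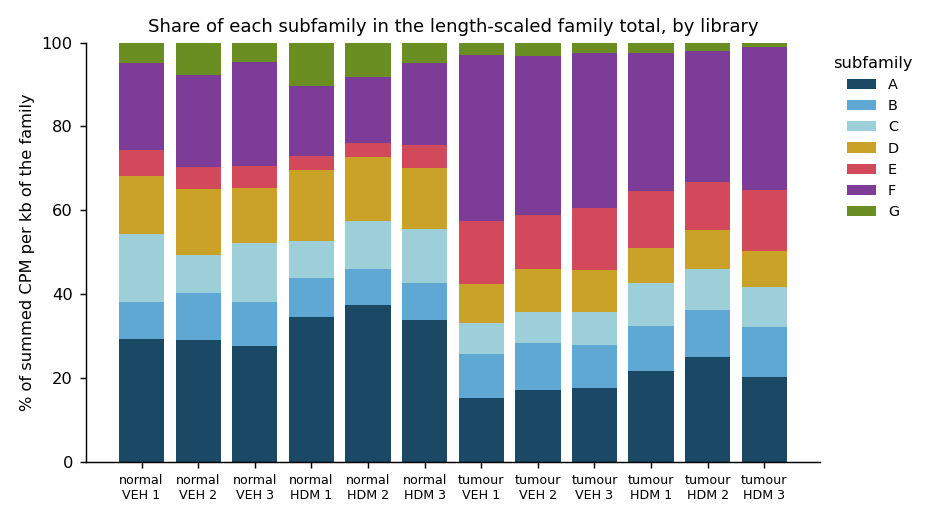
Stacked bars give, for each of the 12 libraries, the percentage of the family's summed CPM per kilobase taken by each of the 7 subfamilies. Subfamily A holds 27.6% to 37.3% in normal libraries against 15.3% to 25.1% in tumours, and F holds 15.9% to 24.7% against 31.4% to 39.7%.

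Subfamily A took 27.6% to 37.3% of the family's length-scaled total in normal libraries and 15.3% to 25.1% in tumours. The single E member took 3.4% to 6.25% in normal lung and 11.5% to 14.9% in tumours, and the 3 F members took 15.9% to 24.7% and 31.4% to 39.7%. Subfamily G took 4.59% to 10.3% in normal lung and 1.11% to 3.16% in tumours. For these 4 subfamilies no tumour library overlapped a normal library. Shares within 1 total are tied to each other, so a higher share of one subfamily lowers the rest.

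Tumours were compared with normal lung separately under VEH and under HDM, with edgeR's quasi-likelihood test and Benjamini-Hochberg adjustment over all 22190 genes tested. A member is called at an adjusted p below 0.05. Under VEH 7 members rose and 12 fell of 39. These falls, and the VEH falls by the other rules below, include Abca1 and Abcc5. The calls of Abca1 and Abcc5 in a comparison with the same VEH tumours were known when the family was chosen. Over all genes 18.2% were called higher and 20.6% lower, 38.9% in either direction. Under HDM 8 members rose and 15 fell, against a background of 23% called higher and 28.9% lower, 51.9% in all. Scaling by library size alone gave 10 higher and 12 lower under HDM, where it called 27.8% of all genes higher and 25.8% lower. In both, rises were called about as often among members as among genes at large. Falls were called somewhat more often among members, with Abca1 and Abcc5 among those under VEH. This difference was not tested, and nothing is read from it. The tumour and normal libraries did not overlap for 7 higher and 14 lower members under VEH, where 23.9% and 28.5% of all genes (52.4% in all) had no overlap, and for 11 and 17 under HDM, where 29.6% and 33.5% (63.1% in all) had none. At an unadjusted p below 0.05 there were 7 higher and 13 lower under VEH against 22.8% and 27.1% of all genes (49.8% in all), and 9 and 15 under HDM against 26% and 32% (57.9% in all). By both of these rules the share of members under VEH, in either direction, was near that of all genes. The family's median log2 change was -0.33 under VEH and -0.41 under HDM, where all genes had -0.11 and -0.08.

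The 2 comparisons use different libraries. In both, 7 members rose (Abca9, Abcb8, Abcc4, Abcd4, Abce1, Abcf1 and Abcf2) and 10 fell (Abca3, Abca4, Abca5, Abcb1a, Abcb9, Abcc3, Abcd2, Abcd3, Abcg1 and Abcg2). None was called in opposite directions. Abca1 and Abcc5 fell under VEH only by call, Abcc1 rose under HDM only by call, and 5 members, Abca13, Abca17, Abcc8 and Abcc10 among them, fell under HDM only by call. The test of the difference between the comparisons, an interaction term, called none of the 39, as described below. The remaining 14 tested members were called in neither.

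**Figure D2:**
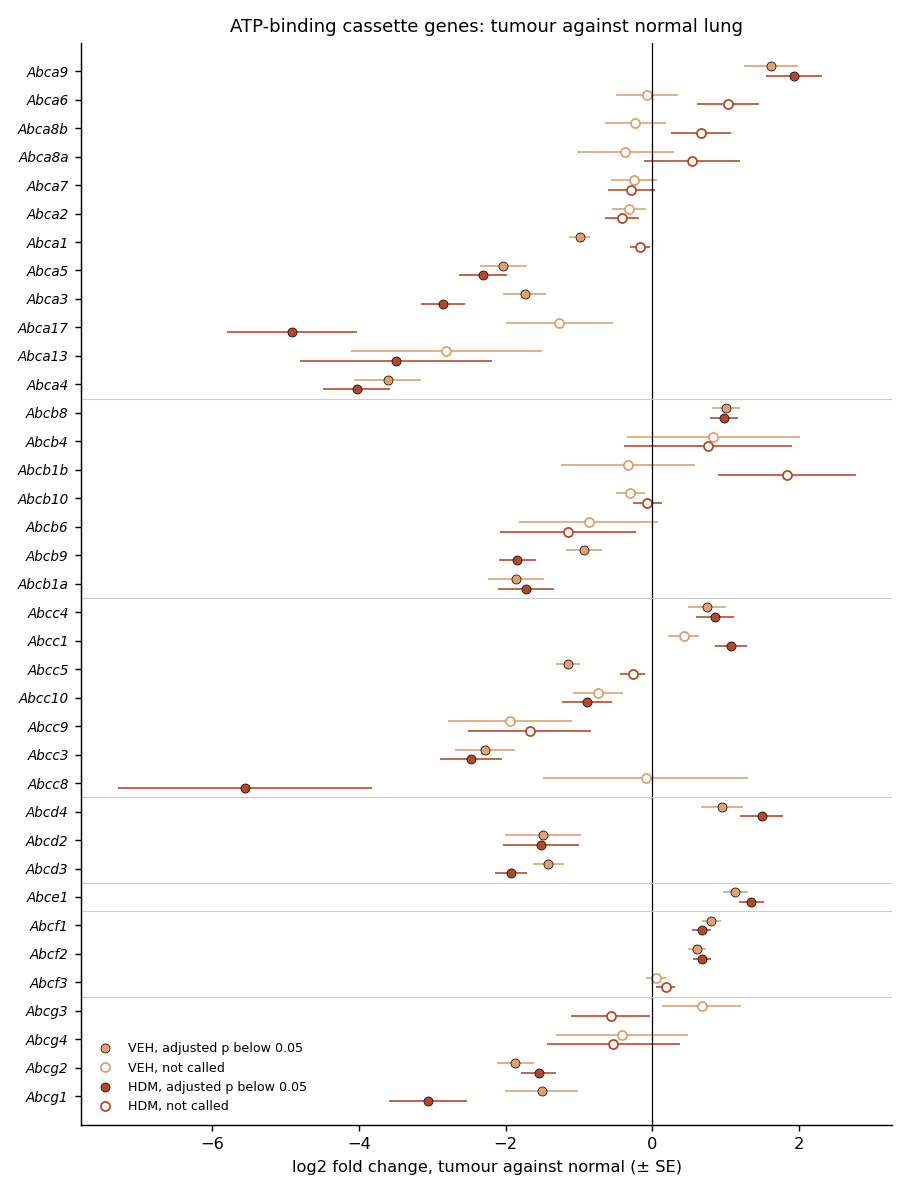
Points give the log2 fold change of tumour against normal lung for tested members, grouped by subfamily A to G from top to bottom, with bars of 1 standard error, for VEH and for HDM. Filled points have an adjusted p below 0.05. The filled points to the right of 0 under both treatments are 7 members, and those to the left under both are 10.

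Among the lipid transporters of subfamily A, Abca3, Abca4 and Abca5 fell in both comparisons. Abca3 was at 289, 430 and 354 CPM in the 3 normal VEH libraries and at 624, 802 and 432 in the normal HDM libraries. In tumours it was at 87.9, 137 and 96.3 CPM under VEH and at 97.0, 100 and 60.3 under HDM. Every tumour library lay below every normal one. Abca3 fell by 1.74 ± 0.29 on the log2 scale under VEH (edgeR adjusted p 0.00147) and by 2.85 ± 0.30 under HDM (edgeR adjusted p 0.000111), values here and below being fold change ± SE with 3 libraries in each group.

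Other genes of the lamellar body, the surfactant store that Abca3 fills, were lower in tumours too. Of 10 such genes none rose, 1 fell under VEH and all 10 fell under HDM, with medians of -2.15 and -3.92 on the log2 scale. The surfactant protein gene Sftpc fell by 4.59 ± 1.46 under HDM (edgeR adjusted p 0.0227). Abca3 was not as low as these genes in every tumour. In tumour HDM 3, Sftpc was at 3.12, Sftpb at 0.637 and Lamp3 at 0.182 CPM while Abca3 was at 60.3. The part of alveolar type 2 cells in the fall of Abca3 was not tested. The antisense RNA gene D330041H03Rik overlaps Abca3 on the opposite strand and held 38005 counts against 92446 for Abca3. The counting's strand setting is not given in the sources used here, so reads of the 2 genes may be mixed.

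Abca4, best known as a retinoid transporter of the retina, was at 11.3, 22.5 and 14.1 CPM in normal VEH, 13.8, 12.9 and 12.7 in normal HDM, 1.27, 1.26 and 1.38 in VEH tumours and 1.03, 1.09 and 0.303 in HDM tumours. It fell by 3.61 ± 0.45 under VEH (edgeR adjusted p 0.000491) and 4.03 ± 0.46 under HDM (edgeR adjusted p 0.000146), and tumour and normal ranges were far apart. Abca5, a lipid transporter of endosomes and lysosomes, ran from 29.7 to 56.8 CPM in normal libraries and from 6.29 to 13.9 in tumours. It fell by 2.03 ± 0.32 and 2.31 ± 0.33 (edgeR adjusted p 0.00132 and 0.000371).

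Abca9, unlike Abca3, Abca4 and Abca5, rose in both comparisons. It was at 14.3, 13.3 and 4.80 CPM in normal VEH, 16.2, 9.06 and 15.0 in normal HDM, 25.2, 38.8 and 35.4 in VEH tumours and 44.0, 55.2 and 53.9 in HDM tumours. All 6 tumours were above all 6 normal libraries. Abca9 rose by 1.62 ± 0.37 under VEH (edgeR adjusted p 0.00747) and by 1.93 ± 0.38 under HDM (edgeR adjusted p 0.002). The VEH call of Abca9 ended without the 4 libraries of conflicting prefixes, at 1.85 (edgeR adjusted p 0.0569). It lies in a row of 5 members on chromosome 11 (GRCm39, 109823016 to 110228542) in the order Abca8b, Abca8a, Abca9, Abca6 and Abca5, all on the minus strand with 0 other protein-coding genes between them. Abca5 at one end fell, Abca9 rose, and Abca6, Abca8a and Abca8b were called in neither comparison. The log2 changes of these uncalled members were -0.07, -0.37 and -0.23 under VEH. Under HDM they were 1.03, 0.54 and 0.66, the same direction as Abca9. Abca8a and Abca8b are close copies, so reads shared between them may have been lost or split. The 5 fibroblast markers summed to 383 to 1280 CPM in normal libraries and to 2530 to 4120 in tumours, but did not move together: 2 rose and 1 fell in each comparison, and none was at 0. Their part in the rise of Abca9 was not tested.

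**Figure D3:**
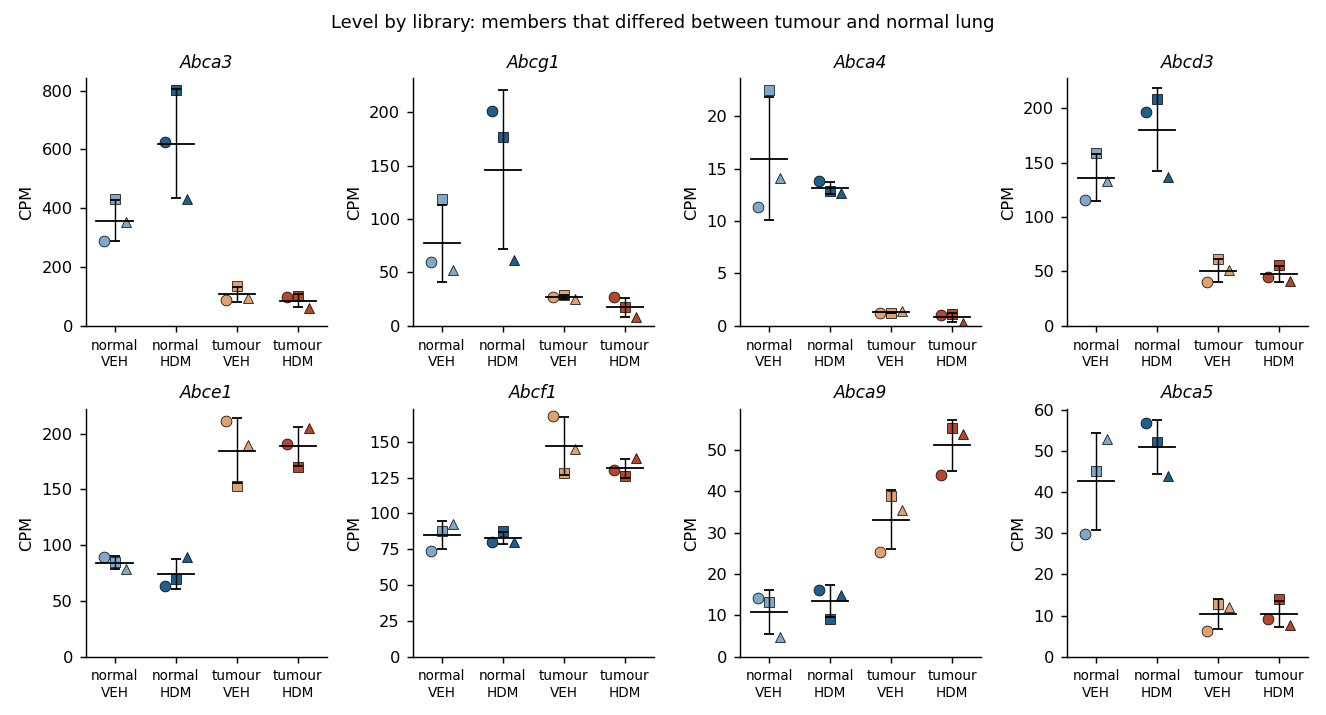
Each panel gives 1 member's CPM by library in the 4 groups (circle, square and triangle for replicates 1, 2 and 3), with the group mean as a line and a bar of 1 SD. Abca3, Abcg1, Abca4, Abcd3 and Abca5 are lower in every tumour library than in every normal one, and Abce1, Abcf1 and Abca9 are higher.

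Of the other A members, Abca13 and Abca17 were near the limit of detection. Abca17 was at 1.72, 0.982 and 1.91 CPM in normal HDM and at 0.0821, 0 and 0.0607 in HDM tumours, where no library had more than 2 counts. Against a floor of 3 counts per library, Abca17 was at least 14.6-fold lower in HDM tumours than in normal HDM lung (edgeR adjusted p 0.00128). It starts 662 bases from Abca3 on the opposite strand of chromosome 17. Abca13 stayed at or below 1.55 CPM in normal lung and at or below 0.205 in tumours, and fell by 3.49 ± 1.31 under HDM (edgeR adjusted p 0.0443). That call ended without any 1 of normal HDM 2, normal HDM 3, tumour HDM 1 or tumour HDM 3 (edgeR adjusted p 0.0742 to 0.16). Without tumour HDM 2 both remaining HDM tumours had 0 counts of Abca13, so no fold is given. Abca2 and Abca7 had overlapping ranges in the tissues and were called in neither comparison.

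Both well-expressed members of subfamily G, Abcg1 and Abcg2, fell in tumours. Abcg1, which passes cholesterol to high-density lipoprotein, was at 60.1, 119 and 52.8 CPM in normal VEH and at 201, 177 and 61.3 in normal HDM. In tumours Abcg1 was at 27.4, 29.0 and 25.1 CPM under VEH and 26.6, 17.5 and 8.58 under HDM. The tumour libraries lay below all normal ones, but the normal libraries differed among themselves by more than the VEH tumours did from the lowest of them. Abcg1 fell by 1.51 ± 0.50 under VEH (edgeR adjusted p 0.036) and by 3.06 ± 0.53 under HDM (edgeR adjusted p 0.00114). Under VEH the call ended without any 1 of normal VEH 1, normal VEH 2 or the 3 tumour libraries, with values between -1.66 and -1.05 (edgeR adjusted p 0.0518 to 0.128). It also ended with the library-name prefix as a block and without the 4 libraries of conflicting prefixes, at -0.90 in both (edgeR adjusted p 0.131 and 0.211).

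The high Abcg1 values in normal lung were in normal VEH 2, normal HDM 1 and normal HDM 2. The same 3 libraries had the highest alveolar macrophage markers: the 5 genes summed to 7480, 7850 and 5400 CPM there and to 124, 244 and 93.8 CPM in normal VEH 1, normal VEH 3 and normal HDM 3. Most of that sum was Chil3. They were also highest in alveolar type 2 markers (31900, 39800 and 35200 CPM against at most 29400), general macrophage markers (623, 656 and 510 against at most 219) and adipocyte markers (78.1, 77.2 and 43.8 against at most 13.7). Abcd2, a peroxisomal transporter of very long-chain fatty acids, was high in the same 3 libraries: 24.1, 30.8 and 20 CPM in those 3 libraries and 7.39, 6.15 and 11.1 in the other normal libraries. In tumours the alveolar macrophage markers summed to 15.6 to 174 CPM, with Fabp1 at 0 in 5 of 6 libraries and Krt79 at 0 in 2. The part of these cells in the levels of Abcg1 and Abcd2 was not tested.

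**Figure D4:**
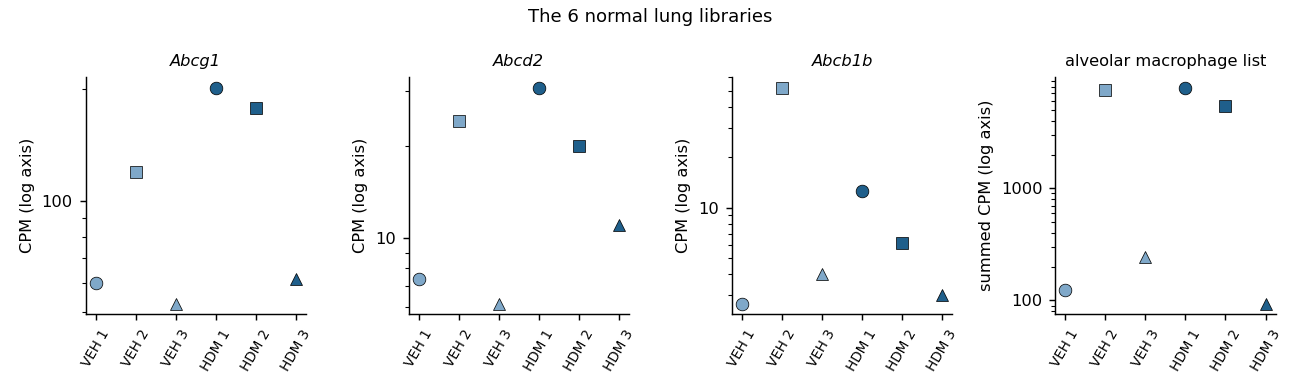
Each panel gives CPM on a log axis in the 6 normal lung libraries for Abcg1, Abcd2 and Abcb1b, and the summed CPM of the 5 alveolar macrophage markers. VEH 2, HDM 1 and HDM 2 are high in Abcg1, Abcd2 and the marker sum, and VEH 2 alone stands out in Abcb1b with 51.9 CPM.

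Abcg2, a broad drug and urate exporter, ran from 17.7 to 27.4 CPM in normal lung and from 5.01 to 10.2 in tumours. It fell by 1.87 ± 0.25 under VEH (edgeR adjusted p 0.000582) and by 1.55 ± 0.24 under HDM (edgeR adjusted p 0.000606), with no overlap. The endothelial markers were lower with it: all 5 fell in both comparisons, and their sum went from 1310 to 2670 CPM in normal lung to 80.8 to 431 in tumours, none of the 5 being at 0. Their part in the fall of Abcg2 was not tested. Abcg3 and Abcg4 were called in neither comparison, and Abcg4 stayed below 1 CPM everywhere.

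The wider sterol machinery did not all follow Abcg1. Of 15 tested genes on a list of sterol receptors, carriers and enzymes, 1 rose and 4 fell under VEH, and 1 rose and 7 fell under HDM, with medians of -0.15 and -0.60. Nr1h3, the sterol-sensing receptor LXR-alpha that switches on Abca1 and Abcg1, fell by 1.42 ± 0.26 and 2.32 ± 0.27 (edgeR adjusted p 0.00261 and 0.000161). Its partner Rxra fell in both comparisons and Rxrb rose in both. The other LXR gene, Nr1h2, was called in neither, with log2 changes of 0.12 and -0.14.

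P-glycoprotein, the multidrug exporter, is encoded in the mouse by neighbouring genes, and they did not move alike. Abcb1a was at 18.1, 31.8 and 48.0 CPM in normal VEH, 39.9, 38.6 and 25.0 in normal HDM, 7.90, 10.7 and 8.35 in VEH tumours and 13.7, 11.5 and 6.25 in HDM tumours. It fell by 1.86 ± 0.38 under VEH (edgeR adjusted p 0.00428) and 1.72 ± 0.38 under HDM (edgeR adjusted p 0.00382), and the ranges did not overlap. Without the 4 libraries of conflicting prefixes the VEH call of Abcb1a ended, at -1.72 (edgeR adjusted p 0.0639). Abcb1b was at 2.67, 51.9 and 4.00 CPM in normal VEH, 12.5, 6.15 and 3.02 in normal HDM, 18.1, 14.9 and 13.7 in VEH tumours and 24.6, 26.4 and 26.2 in HDM tumours. Apart from normal VEH 2, every normal library of Abcb1b was below every tumour. Abcb1b was not called, with log2 changes of -0.33 ± 0.91 under VEH and 1.83 ± 0.94 under HDM (edgeR adjusted p 0.789 and 0.127). Without normal VEH 2 the VEH value was 2.22 ± 0.51 (edgeR adjusted p 0.00724), so that 1 library decided its sign. The 2 genes are close copies, and reads they share may have been lost or split.

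The 250 bases before the start of each of these 2 genes are shown because the genes are neighbours. Of the 2, only Abcb1a was called between the tissues. Both lie on the plus strand of chromosome 5 (GRCm39), the Abcb1a window at chr5:8709772-8710021 and the Abcb1b window at chr5:8847744-8847993. Capitals mark the motif TGACTCA, searched on both strands, the letters being the recognition sequence of AP-1 factors.
Abcb1a: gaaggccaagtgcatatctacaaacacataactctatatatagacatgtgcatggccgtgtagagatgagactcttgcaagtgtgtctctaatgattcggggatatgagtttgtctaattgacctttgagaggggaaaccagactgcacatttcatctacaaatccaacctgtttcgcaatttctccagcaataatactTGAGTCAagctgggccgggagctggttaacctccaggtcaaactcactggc
Abcb1b: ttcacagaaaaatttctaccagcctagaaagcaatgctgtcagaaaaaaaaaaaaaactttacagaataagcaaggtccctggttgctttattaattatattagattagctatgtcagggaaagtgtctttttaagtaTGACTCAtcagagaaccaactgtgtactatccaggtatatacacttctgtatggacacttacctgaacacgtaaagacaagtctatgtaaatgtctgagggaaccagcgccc
The match begins 51 bases before the start of Abcb1a and 112 bases before that of Abcb1b. These are the 2 of 50 members (4%) with the motif in such a window, and 4.03% of 21723 protein-coding genes have it, so the family's share is near the background. The motif was chosen for display after 7 motifs had been counted. Both windows are poor in CpG, with 4 and 2, where the median over all genes is 8.

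Other members of subfamily B work in mitochondria and lysosomes. Abcb8, of the mitochondrial inner membrane, ran from 15.7 to 26.0 CPM in normal libraries and from 33 to 44.5 in tumours. It rose by 1.00 ± 0.19 under VEH and 0.98 ± 0.19 under HDM (edgeR adjusted p 0.00318 and 0.00202). Its mitochondrial relative Abcb10, which works with haem synthesis, was called in neither comparison, with log2 changes of -0.30 ± 0.20 and -0.07 ± 0.20. Among 12 tested genes of haem and iron-sulphur synthesis, 1 rose and 3 fell in each comparison, with medians of -0.04 and 0.13. Alas1, the first enzyme of haem synthesis, fell by 2.60 ± 0.54 and 3.42 ± 0.56 (edgeR adjusted p 0.0047 and 0.000846). Abcb6 and Abcb4 had at most 1.06 CPM in any library and were called in neither, and both overlap genes on the opposite strand with far more counts. Abcb9, a lysosomal peptide transporter, ran from 7.99 to 12.2 CPM in normal lung and from 2.67 to 5.54 in tumours. It fell by 0.93 ± 0.25 and 1.84 ± 0.25 (edgeR adjusted p 0.0144 and 0.000333), and the VEH call ended without tumour VEH 1 (fall of 0.70, edgeR adjusted p 0.0843) and with the prefix block (fall of 1.13, edgeR adjusted p 0.0521).

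The conjugate and drug exporters of subfamily C split. Abcc3, an exporter of glucuronides, was at 117, 46.8 and 123 CPM in normal VEH, 62.6, 118 and 98.9 in normal HDM, 13.8, 23.9 and 21.5 in VEH tumours and 22.3, 17 and 11.1 in HDM tumours. No tumour reached the lowest normal library. Abcc3 fell by 2.28 ± 0.41 under VEH and 2.47 ± 0.42 under HDM (edgeR adjusted p 0.00248 and 0.000937). Opposite it, Abcc4, an exporter of cyclic nucleotides and prostaglandins, ran from 11.5 to 20.9 CPM in normal lung and from 19.5 to 34.4 in tumours. It rose by 0.74 ± 0.26 and 0.85 ± 0.26 (edgeR adjusted p 0.0437 and 0.0187). The VEH call of Abcc4 ended without any 1 of normal VEH 1, normal VEH 3, tumour VEH 1 or tumour VEH 3 (edgeR adjusted p 0.0645 to 0.138). Both calls of Abcc4 ended with the prefix block, at 0.89 and 0.74 (edgeR adjusted p 0.0528 and 0.0651).

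Abcc1, an exporter of glutathione conjugates, was at 64.5, 54.1 and 49.3 CPM in normal VEH, 39.6, 66.7 and 62.0 in normal HDM, 93.2, 60.2 and 72.4 in VEH tumours and 114, 127 and 111 in HDM tumours. The VEH ranges overlapped and the HDM ranges did not. It rose by 1.07 ± 0.22 under HDM (edgeR adjusted p 0.0024), and under VEH its log2 change was 0.43 ± 0.21 (edgeR adjusted p 0.131). On a list of drug-sensing receptors, glutathione enzymes and organic anion uptake transporters, mostly falls were called: of 17 genes, 1 rose and 10 fell in each comparison, with medians of -1.13 and -1.02. They include Gclc, the first enzyme of glutathione synthesis, which fell by 1.37 ± 0.32 and 2.19 ± 0.33 (edgeR adjusted p 0.00823 and 0.000511), and the dioxin receptor Ahr, which fell in both.

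The sulphonylurea receptors of this subfamily, Abcc8 and Abcc9, are regulatory subunits of potassium channels rather than transporters. Abcc9 was at 45.5, 4.28 and 5.30 CPM in normal VEH, 15.6, 13.3 and 24.5 in normal HDM, 5.95, 2.53 and 5.91 in VEH tumours and 8.71, 2.77 and 5.31 in HDM tumours. It was called in neither comparison, at -1.94 ± 0.85 and -1.67 ± 0.84 (edgeR adjusted p 0.0913 and 0.118). The VEH value rests on normal VEH 1, which had 45.5 CPM: without it the change was 0.00 ± 0.52. Without normal VEH 2 instead, Abcc9 was called lower, at -2.40 (edgeR adjusted p 0.0361). Of the pores these subunits join, Kcnj8 and Kcnj11, both fell under HDM and neither was called under VEH. Markers of pericytes and smooth muscle, cells known for Abcc9, summed to 110 to 1230 CPM in normal lung and 28.3 to 116 in tumours. Of the 5, 2 fell under VEH and 5 under HDM, and their part was not tested.

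Abcc8 reached 5.97 CPM in normal HDM 2 and at most 1.07 in any other library. It fell by 5.55 ± 1.73 under HDM (edgeR adjusted p 0.0206), a call that ended without any 1 of normal HDM 2, tumour HDM 2 or tumour HDM 3 (falls of 3.92 to 4.84, edgeR adjusted p 0.072 to 0.0926). Without tumour HDM 1 both remaining HDM tumours had 0 counts, so no fold is given. Abcc10, a broad drug exporter, fell by 0.89 ± 0.34 under HDM (edgeR adjusted p 0.0464), and that call ended without any 1 of the 3 normal HDM libraries, tumour HDM 1 or tumour HDM 2 (falls of 0.54 to 1.01, edgeR adjusted p 0.0526 to 0.22). Without the 4 libraries of conflicting prefixes the fall of Abcc10 was 0.32 (edgeR adjusted p 0.525).

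Peroxisomal transporters of subfamily D were lower in tumours, while the lysosomal member was higher. Abcd3, which carries branched-chain and bile acid precursors into peroxisomes, was at 116, 159 and 133 CPM in normal VEH, 196, 208 and 137 in normal HDM, 40.3, 61.0 and 51.0 in VEH tumours and 45.2, 55.5 and 41.3 in HDM tumours. It fell by 1.42 ± 0.21 and 1.93 ± 0.22 (edgeR adjusted p 0.000994 and 0.000139), with a wide gap between the tissues. Abcd2 fell by 1.49 ± 0.52 and 1.52 ± 0.52 (edgeR adjusted p 0.0434 and 0.0304) but its calls were weak. Under VEH the call of Abcd2 ended without any 1 of normal VEH 2 or the 3 tumours (edgeR adjusted p 0.0782 to 0.245), and without normal VEH 2 the fall was 0.60. It ended too with the prefix block and without the 4 libraries of conflicting prefixes, with falls of 0.62 and 0.41 (edgeR adjusted p 0.24 and 0.436). Under HDM it ended without any 1 of normal HDM 1, normal HDM 2 or the 3 tumours (edgeR adjusted p 0.0592 to 0.137).

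Abcd4, which brings vitamin B12 out of lysosomes, ran from 6.69 to 15.5 CPM in normal lung and from 17.6 to 35.7 in tumours. It rose by 0.95 ± 0.29 and 1.49 ± 0.29 (edgeR adjusted p 0.0237 and 0.00192). The VEH call of Abcd4 ended without any 1 of normal VEH 1, normal VEH 3, tumour VEH 1 or tumour VEH 3 (edgeR adjusted p 0.0557 to 0.0761).

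Among 11 peroxisome genes, 1 rose and 5 fell under VEH and 2 rose and 4 fell under HDM, with medians of -0.63 and -0.46. Enzymes of peroxisomal fatty acid oxidation were among those that fell: Phyh by 1.58 ± 0.28 and 1.80 ± 0.29 (edgeR adjusted p 0.00227 and 0.000641), and Acaa1a and Hsd17b4 in both comparisons as well. Genes for building peroxisomes were mixed, since Pex14 rose in both and Pex16 fell under VEH.

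The ribosome factors of subfamilies E and F rose, with 1 exception. Abce1, which splits ribosomes after translation ends, was at 89.8, 84.5 and 78.9 CPM in normal VEH, 63.2, 69.7 and 89.7 in normal HDM, 211, 153 and 190 in VEH tumours and 191, 170 and 205 in HDM tumours. The lowest tumour exceeded the highest normal library. Abce1 rose by 1.13 ± 0.17 under VEH (edgeR adjusted p 0.000897) and 1.35 ± 0.17 under HDM (edgeR adjusted p 0.000202).

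Abcf1, which binds initiation factor eIF2, was at 74.1, 87.8 and 92.6 CPM in normal VEH, 80.3, 87.4 and 80.2 in normal HDM, 168, 128 and 145 in VEH tumours and 130, 126 and 139 in HDM tumours. Again no libraries overlapped. It rose by 0.80 ± 0.13 and 0.67 ± 0.13 (edgeR adjusted p 0.00164 and 0.0022). Abcf2 rose by 0.61 ± 0.12 and 0.68 ± 0.12 (edgeR adjusted p 0.0034 and 0.00117), with 50.8 to 66.8 CPM in normal lung and 80.7 to 101 in tumours. The gene Chpf2 overlaps Abcf2 on the opposite strand and had 15057 counts against 22634 for Abcf2. Abcf3, which works with the stress kinase partner Gcn1, was called in neither: it ran from 44.4 to 52.3 CPM in normal lung and from 44.6 to 62.3 in tumours, with log2 changes of 0.05 ± 0.13 and 0.18 ± 0.13.

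Partners of these factors rose as well. Of 10 genes of ribosome recycling, termination and translation control, 5 rose under VEH and 8 under HDM and none fell, with medians of 0.56 and 0.72. Gspt1, the release factor eRF3a, rose by 1.14 ± 0.15 and 1.36 ± 0.15 (edgeR adjusted p 0.00053 and 0.000127), and Eif2s1, the eIF2 subunit alpha, by 1.49 ± 0.16 and 1.78 ± 0.16 (edgeR adjusted p 0.000332 and 8.98e-05). Gcn1 and Eif6 rose in both. All 5 proliferation markers rose in both comparisons and their part in the rise of the ribosome factors was not tested. Normal VEH 2 had the highest proliferation sum of the normal libraries, 142 CPM, below the 457 to 930 CPM of the tumours. It had 84.5 CPM of Abce1 and 87.8 of Abcf1, within the range of the other normal libraries. Nothing is read from this 1 library.

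HDM was compared with VEH within tumours next. In this comparison Abca1 and Abcc5 were above the calling threshold, and since their calls were known when the family was chosen, the values are a description. By edgeR they were the only 2 genes of 22190 called higher, which makes a background of 0.00901%, against 19 genes (0.0856%) called lower, none of them a member, and 0.0946% in all. On the same genes the DESeq2 Wald test called 255 higher (1.15%) and 1056 lower (4.76%), with 3 members higher: these 2 and Abca6. Other filters on low counts gave edgeR 4 genes higher and 48 or 49 lower. The VEH tumours of this comparison are also those of the tumour against normal comparison under VEH, so the results are not independent.

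Abca1, which starts high-density lipoprotein by loading cholesterol and phospholipid onto apolipoprotein A-I, was at 34.1, 26.6 and 32.8 CPM in VEH tumours and at 68.6, 73.6 and 64.1 in HDM tumours. Normal lung had 68.8, 63.6 and 53.6 CPM under VEH and 80.6, 74.6 and 76.7 under HDM. The VEH tumours were thus the low group, and the HDM tumours were in the range of the normal VEH libraries or just above it. Abca1 was 2.21-fold higher in HDM than in VEH tumours, a log2 change of 1.14 ± 0.14. Against normal lung it fell by 0.99 ± 0.14 under VEH (edgeR adjusted p 0.00071), and under HDM the change was -0.17 ± 0.14 (edgeR adjusted p 0.316).

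Abcc5, an exporter of cyclic nucleotides and other organic anions, had nearly the same pattern. It was at 26.8, 27.1 and 36.4 CPM in VEH tumours, 61.5, 78.5 and 59.6 in HDM tumours, 59.9, 78.6 and 62.0 in normal VEH and 85.0, 80.4 and 74.5 in normal HDM. The VEH tumours were below all 9 other libraries. Abcc5 was 2.21-fold higher in HDM than in VEH tumours, a log2 change of 1.15 ± 0.17. Against normal lung Abcc5 fell by 1.15 ± 0.17 under VEH (edgeR adjusted p 0.000993), and its HDM change was -0.27 ± 0.17 (edgeR adjusted p 0.21).

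Over 15 alternatives the log2 change was 1.04 to 1.23 for Abca1 and 0.88 to 1.32 for Abcc5, and Abca1 was past the threshold in 6 and Abcc5 in 3. These are the values the family was chosen on, so their range supports nothing further. The call of Abca1 ended without any 1 of tumour HDM 1, tumour HDM 2 or the 3 VEH tumours (log2 change 1.04 to 1.21), and that of Abcc5 without any 1 of the 6 tumours (1.01 to 1.32). Without the 4 libraries of conflicting prefixes neither was called, at 1.13 and 1.17.

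**Figure D5:**
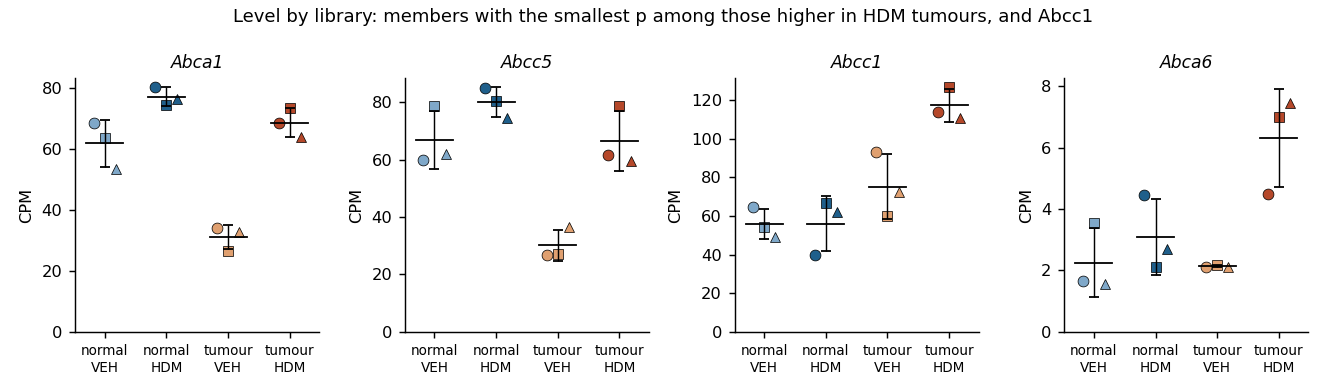
Each panel gives 1 member's CPM by library in the 4 groups (circle, square and triangle for replicates 1, 2 and 3), with the group mean as a line and a bar of 1 SD. VEH tumours are the low group for Abca1 (26.6 to 34.1 CPM) and Abcc5 (26.8 to 36.4 CPM), and HDM tumours are the high group for Abcc1 (111 to 127 CPM) and Abca6.

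The bases before the start of Abca1 and Abcc5 are shown because these 2 genes shared this pattern. Both are on the minus strand, and the sequences read in the direction of transcription: chr4:53159901-53160150 for Abca1 and chr16:20245193-20245442 for Abcc5 (GRCm39). Capitals mark CACGTG, the E-box, which reads the same on both strands.
Abca1: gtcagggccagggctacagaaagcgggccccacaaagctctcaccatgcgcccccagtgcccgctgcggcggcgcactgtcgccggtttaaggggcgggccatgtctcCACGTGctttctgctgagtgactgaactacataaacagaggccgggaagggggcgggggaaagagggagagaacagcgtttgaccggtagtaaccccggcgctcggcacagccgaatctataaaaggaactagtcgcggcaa
Abcc5: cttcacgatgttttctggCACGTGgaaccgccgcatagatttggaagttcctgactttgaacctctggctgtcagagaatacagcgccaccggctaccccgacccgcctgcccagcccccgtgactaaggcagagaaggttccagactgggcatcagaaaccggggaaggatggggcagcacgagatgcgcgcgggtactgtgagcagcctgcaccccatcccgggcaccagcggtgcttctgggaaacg
The motif begins 142 bases before the start of Abca1 and 232 before that of Abcc5. It stands in 7 of 50 members (14%), the others being Abca8a, Abca9, Abca15, Abcc8 and Abcf1, and in 6.27% of 21723 protein-coding genes. Between the tissues, Abca9 and Abcf1 of these 7 rose in both comparisons, Abca1 and Abcc5 fell under VEH, Abcc8 fell under HDM, Abca8a was not called and Abca15 was not tested. Like the motif above, it was chosen for display after 7 had been counted.

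Known sterol-response genes are set beside Abca1 in HDM tumours. None of the 15 tested sterol genes was called in this comparison, and their median log2 change was -0.10. Values were -0.50 ± 0.26 for Nr1h3, 0.01 ± 0.14 for Srebf1, a target of LXR, and -0.36 ± 0.20 for Mylip, another target. Abcg1, the other classic target, was at 27.4, 29.0 and 25.1 CPM in VEH tumours and 26.6, 17.5 and 8.58 in HDM tumours, with overlapping ranges.

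Among the other members in tumours, the groups did not overlap for 10 higher in HDM and 6 lower, Abca1 and Abcc5 included, where 11.3% and 10.7% of all genes (22% in all) had no overlap. At an unadjusted p below 0.05 there were 6 higher and 3 lower, where 5.33% and 11.3% of all genes (16.7% in all) reached that level. Since this contrast chose the family, nothing is read from these shares. Of the row on chromosome 11, 4 genes had all HDM tumours above all VEH tumours. Abca6 was at 2.12, 2.19 and 2.12 CPM in VEH tumours and 4.48, 7.0 and 7.46 in HDM tumours, a log2 change of 1.55 ± 0.42. Abca8b went from 8.33, 8.92 and 12.1 CPM to 22.1, 29.6 and 18, Abca8a from 44.0, 16.9 and 49.3 to 75.1, 111 and 70.5, and Abca9 from 25.2, 38.8 and 35.4 to 44.0, 55.2 and 53.9. None of the 4 was called by edgeR, and the DESeq2 Wald test called Abca6 (1.52, adjusted p 0.0119). Abca5 at the end of the row was at 6.29 to 12.9 CPM in VEH tumours and 7.82 to 13.9 in HDM tumours.

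On the lower side, Abca17 was near the limit of detection in both tumour groups. It was at 0.255, 0.297 and 0.508 CPM in VEH tumours, with at most 11 counts in a library, and at 0.0821, 0 and 0.0607 in HDM tumours. Against the 3-count floor its mean was at least 3.35-fold lower in HDM tumours, a value resting on few counts. Abca17 was not called. Abcb9 went from 3.70, 4.46 and 5.54 CPM to 2.67, 2.73 and 3.46, a log2 change of -0.63 ± 0.25, and Abcg3 from 9.18, 4.57 and 4.94 to 3.86, 1.91 and 1.76, at -1.31 ± 0.55. Neither group pair overlapped and neither was called. Of the superfamily genes with other symbols, Tap2, part of the transporter that feeds peptides to MHC class I, was at 146, 128 and 136 CPM in VEH tumours and 65.5, 70.3 and 48.9 in HDM tumours, and was called lower at -1.15 ± 0.15 (edgeR adjusted p 0.0274). Its partner Tap1 went from 162, 95.3 and 143 CPM to 41.2, 42.9 and 18.1, at -1.97 ± 0.31, just short of the threshold (edgeR adjusted p 0.0527). The 5 T cell markers moved with them, summing to 36.9 to 59.5 CPM in VEH tumours and 1.3 to 13.3 in HDM tumours, none at 0, and their part was not tested.

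In normal lung, HDM against VEH called no member and no gene of 22190 by edgeR, a background of 0%. The DESeq2 Wald test called 0 members too, with 0.0496% of all genes higher and 0.144% lower. Normal VEH 2 and normal HDM 3 enter here although their prefixes conflict in treatment. Abcg1 was high in normal VEH 2, HDM 1 and HDM 2 (119, 201 and 177 CPM). It was lower in normal HDM 3, VEH 1 and VEH 3 (61.3, 60.1 and 52.8 CPM). Whether these labels are right was not tested, so the lack of calls does not show that HDM had no effect. The interaction below uses these libraries too. At an unadjusted p below 0.05 there were 3 members, all higher in HDM and Abca3 and Abca1 among them, where 1.92% of all genes did in that direction and 3.62% in the other (5.54% in all). The treatment groups did not overlap for 4 members, all higher, where 4.47% of all genes were higher and 5.85% lower without overlap (10.3% in all). Abca3 had a log2 change of 0.79 ± 0.28 and Abca1 of 0.32 ± 0.14 (edgeR adjusted p 0.887 for each). In both the HDM libraries were all above the VEH libraries, for Abca3 only just, with 432 CPM in normal HDM 3 and 430 in normal VEH 2. The negative changes with the smallest unadjusted p were -0.22 ± 0.12 for Abcf2, -0.19 ± 0.16 for Abce1 and -1.43 ± 0.93 for Abcb1b, whose sign turned to 1.12 without normal VEH 2.

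The interaction asks whether the tumour against normal change differed between HDM and VEH. It called no member and no gene by edgeR, a background of 0%, and 8 members at an unadjusted p below 0.05, 2 positive and 6 negative, against 3.33% and 6.06% of all genes (9.39% in all). The 2 positive members were Abca1, at 0.82 ± 0.19, and Abcc5, at 0.89 ± 0.24 (edgeR adjusted p 0.41 and 0.439). They are the genes the family was chosen on, and their values restate the description above since the libraries are shared. Nothing is read from the positive count. On the other side was Abca3 at -1.11 ± 0.39 (edgeR adjusted p 0.493). Abcc1 was at 0.64 ± 0.30 (edgeR adjusted p 0.539). The DESeq2 Wald test called 1 member, Abca1, at 0.79, with 0.167% of all genes positive and 0.834% negative. Calls made under 1 treatment alone are thus not shown to differ between treatments.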

How the data were processed

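The deposited file holds raw counts per Ensembl gene, whole numbers, for 12 libraries. Per the submitters' processing notes the authors used Trim Galore, STAR and featureCounts (Subread) with mm39. Versions, annotation, strand and multimapping settings are not given in the sources used here. Per the labels' protocols, libraries were stranded (dUTP) and paired-end, and either poly(A) selection or ribosomal RNA depletion was used.

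Symbols, coordinates and overlaps came from GENCODE M39 (GRCm39), which holds 78168 of 78298 identifiers. Counts were fitted with edgeR 4.0.16 in R 4.3.3: filterByExpr (minimum count 10), TMM, all 12 libraries, 1 coefficient per group, robust quasi-likelihood F-test, two-sided, Benjamini-Hochberg over 22190 genes. The SE is the log2 change over the square root of F. CPM uses TMM-scaled totals. The method was tested on simulated data. Promoter windows are the 250 bases before each gene's start. Alternatives were other scaling, filters, DESeq2 1.42.0, blocks, only the compared groups, and leaving out libraries. In full are given up to 8 called members in each direction of each tissue comparison with average log2 CPM of at least 1, called members and the 3 rises and 3 falls of lowest unadjusted p in the other comparisons, and members of known role; most others are named to account for them. From partner lists the rule took the 2 largest changes in each direction; other list genes named were chosen after their values were seen. Members and lists were chosen with earlier results of these data known. The results of some members and list genes are not reported here.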

Additional observations from a re-analysis of the deposited data

How the results depend on the processing

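The counts of members called between tumour and normal lung stayed within 1.5 times in all 64 alternatives. Of 42 calls of named members between the tissues, 30 held in every alternative that tested the gene. Abca17 under HDM is among the 30 but was not tested where at least 10 counts in every library were required. The count of members higher in HDM than VEH tumours, 2, was 1 with DESeq2 size factors, 1 with library size only, and 0 with the replicate block, the library-name prefix block, without the 4 libraries of conflicting prefixes, and with only the compared groups, and 3 with the DESeq2 Wald test, which added Abca6. Leaving out 1 library gave 0 to 1. With Tap1, Tap2 and Cftr counted in, 1 was lower. The DESeq2 Wald test called 1 member in the interaction. With the replicate block, members called were 6 higher and 12 lower under VEH, and 8 and 15 under HDM. With the prefix block they were 6 and 10, and 8 and 13. Correlations of deviations from the group means ran from -0.36 to 0.30 for same-numbered libraries, 8 of 18 above 0.1. For libraries sharing a prefix they ran from -0.22 to 0.18, 3 of 6 above 0.1. The medians were 0.075 and 0.085. With group means of 3 libraries, these correlations cannot show or exclude a pairing by either. Reversed values were all in uncalled results. Abcb1b between tissues under VEH (-0.33) was 0.25 with the replicate block, 1.87 with the prefix block, 2.41 without the 4 libraries and 2.22 without normal VEH 2. Abcb1b between treatments in normal lung (-1.43) was 1.5 without the 4 libraries and 1.12 without normal VEH 2. Abcc9 under VEH was 0.00 without normal VEH 1, and Abca1 under HDM (-0.17) was 0.00 with library size only and 0.02 without tumour HDM 3. Leaving out 1 library at a time, these 4 ran from -0.85 to 2.22, -2.09 to 1.12, -2.40 to 0.00 and -0.19 to 0.02, in the order given. The cause was not tested. Calls were also added: Abcc9 was called lower under VEH with the DESeq2 Wald test and the prefix block (-1.98 and -1.94) and under HDM with the replicate block and only the compared groups (-1.93 and -1.70), and Abcb1b was called higher under HDM without the 4 libraries and with only the compared groups (1.53 and 1.78). Library size alone moved the median of all genes by 0.14 under VEH and 0.18 under HDM. Depth limits members below about 1 CPM, such as Abcc8 and Abca13.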

Other observations

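Each library-name prefix joins 1 normal and 1 tumour library, and the difference in log2 CPM within a prefix gives another view of the members, although 2 of the 6 prefixes mix treatments. Over the 6 prefixes 8 members were higher in the tumour each time: Abca9, Abcb8, Abcc1, Abcc4, Abcd4, Abce1, Abcf1 and Abcf2. Another 15 of the 39 tested were lower each time. Of all 22190 genes tested, 24.9% were higher and 30% lower in every prefix. Among the 15 lower members were Abca3, with differences from -3.36 to -1.37, Abca4, from -4.16 to -2.73, and Abcg1, from -4.47 to -0.85. Abcb1b was higher in the tumour in 5 of 6 prefixes. The exception, at -0.96, was the prefix that joins normal VEH 2 and tumour HDM 2.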
